A study of Homo sapiens with 6 samples.

Results

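The pair of libraries described here differed in the on-beads concentration of RNase I. IGF2BP3 was precipitated from lysates treated with RNase I at 0.05 U/µL, and the beads were then treated with RNase I at 0.05 or at 0.025 U/µL, so that the libraries are named 0.05/0.05 and 0.05/0.025 (in-lysate/on-beads). They are 2 of the 6 libraries of the series and were chosen by their labels. The others were IGF2BP3 libraries with RNase I at 0.1/0.025 and with RNase T1 at 1/1 and 0.25/0.25 U/µL, and 1 IgG control with RNase I at 0.1/0.025. Each condition is 1 library without a replicate, so no test between conditions was possible, and intervals below cover counting error only. All cells were HCT116, a human colorectal carcinoma line, of the genotype Tet-OsTIR1-PURO, which carries an inducible plant ubiquitin ligase adaptor. Before crosslinking by UV light (365 nm), the cells had taken up 4-thiouridine, given at 100 µM over 15 h. By the study's methods, electroelution from the gel yielded the RNA of the 0.05/0.05 and RNase T1 1/1 libraries, and the gel was crushed for the remaining IGF2BP3 libraries. The labels do not say whether the libraries came from 1 culture of cells. The on-beads dose, the gel extraction and the culture therefore cannot be told apart in this pair.

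IGF2BP3 is an oncofetal RNA-binding protein with RRM and KH domains that binds mRNAs mostly in their 3′UTRs and is known for stabilizing transcripts and for supporting proliferation in tumors. In PAR-CLIP, RNase cuts the crosslinked RNA down to fragments that are sequenced, and T-to-C conversions in the reads mark the crosslinked 4-thiouridines. RNase I cuts with little sequence preference, whereas RNase T1 cuts after G. Neighboring fragments that carry such conversions are joined into clusters, which are the unit counted in these files.

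The 0.05/0.05 library held 90999 clusters with 2362467 reads and the 0.05/0.025 library 36795 clusters with 670712 reads. The share of reads in clusters over annotated exons was 90.7% and 90.5%. Reads of a gene were summed over all clusters that shared at least 1 nt with its exons on the same strand and are given as CPM, the reads per 1000000 cluster reads of the library. The smallest listed cluster had 2 reads in each library, worth 0.847 CPM at 0.05/0.05 and 2.98 CPM at 0.05/0.025. A gene without a listed cluster may therefore still have had fewer reads than that. Of the epithelial markers EPCAM, CDH1, KRT8, KRT18, KRT19, VIL1, CDX2, LGALS4, CEACAM5 and CEACAM6, 5 of 10 had clusters in each library, summing to 223 and 216 CPM, and VIL1, CDX2, LGALS4, CEACAM5 and CEACAM6 had none. None of 13 fibroblast, endothelial and blood cell markers had a cluster. The IgG library held 25 clusters with 324 reads.

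Sequences from genes named below are shown first, each from 1 cluster, whereas the level of a gene sums over all its clusters. Each is a window of 25 nt at the crosslink mode, kept within the cluster with the most reads of that gene, 5′ to 3′ as DNA letters of GRCh38. Capitals mark matches to a set of tetramers, which were CATT, CATA and CATC as well as CAGT. These are elements of the kind that KH domains bind, and they were searched for on the transcribed strand with overlaps allowed. RRM2, the small subunit of ribonucleotide reductase, is shown from chr2:10129850-10129874 (plus strand, 0.05/0.05) and chr2:10129689-10129713 (plus strand, 0.05/0.025), both in the 3′UTR. Both windows lay in overlapping clusters of 203 nt, with 82 reads at 0.05/0.05 and 142 reads at 0.05/0.025. ASF1B, a histone chaperone of replicating chromatin, is shown from chr19:14120217-14120241 (0.05/0.05) and chr19:14120353-14120377 (0.05/0.025), both in the 3′UTR on the minus strand. RREB1, a zinc finger transcription factor, is shown from chr6:7250158-7250182 (0.05/0.05) and chr6:7251620-7251644 (0.05/0.025), and KLF13, a Krüppel-like transcription factor, from chr15:31376407-31376431 (0.05/0.05) and chr15:31377725-31377749 (0.05/0.025), all in 3′UTRs on the plus strand.
RRM2, 0.05/0.05: gaccactaatgggagccaattcaca
RRM2, 0.05/0.025: ccagcacagcCAGTtaaaagatgca
ASF1B, 0.05/0.05: agttctaaattctgacttgtgttct
ASF1B, 0.05/0.025: ctttgggggcCATCagctgcaatcc
RREB1, 0.05/0.05: cCAGTgaccaggcaCATTactcgtg
RREB1, 0.05/0.025: acgtaaCAGTcggatgcCAGTtttg
KLF13, 0.05/0.05: ttggtcaCATCacaacCAGTaagaa
KLF13, 0.05/0.025: ccttggcttgctcggataaaacttt
Over all clusters of 25 nt or more, such a window held at least 1 of the tetramers in 41.0% of 87781 clusters at 0.05/0.05 and in 43.1% of 35632 clusters at 0.05/0.025.

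At 0.05/0.05, mRNAs of S phase and G2/M genes took a smaller share of the IGF2BP3 reads than at 0.05/0.025. The share of mRNAs with long 3′UTRs was larger. Clusters were found in 11080 genes at 0.05/0.05 and in 7282 genes at 0.05/0.025, of which 7119 were shared. In 5377 genes with clusters in both and a mean of at least 20 CPM, the share was at least 2-fold higher at 0.05/0.05 in 993 genes (18.5%) and at least 2-fold lower in 296 genes (5.5%). Below, rose and fell are used only of changes of at least 2-fold. The median log2 ratio of 0.05/0.05 over 0.05/0.025 was 0.12, with quartiles of -0.36 and 0.72. When only clusters of at least 2.98 CPM were kept in both libraries, 639 genes were higher and 373 lower. For 992 of the higher and all 296 lower genes the 95% counting interval of the fold lay on one side of 1. PTGFRN lay just inside the higher limit with a log2 ratio of 1.002 and FAM20B just outside it with 0.9999, and ENSG00000231747 lay just inside the lower limit with -1.001 and SSRP1 just outside it with -0.9962. By comparison, RNase I 0.1/0.025 over 0.05/0.025, where the in-lysate dose differed and the gel extraction did not, had 342 higher (6.9%) and 281 lower (5.67%) of 4953 genes.

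**Figure D1:**
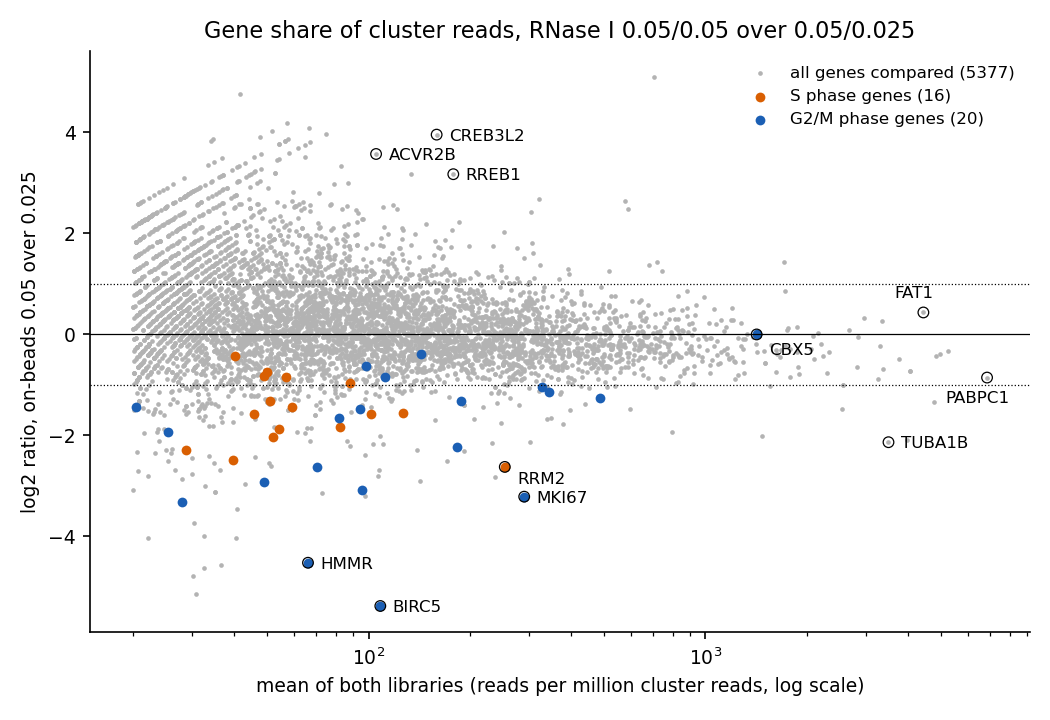
Each point is a gene with clusters in both libraries, by its mean CPM (log axis) and its log2 ratio of RNase I 0.05/0.05 over 0.05/0.025. Orange and blue points mark genes of S phase and of G2/M phase, all below 0. Dotted lines mark a 2-fold change. The upward spread widens toward low levels.

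BIRC5 and MKI67 had the largest falls among genes with a mean of at least 100 CPM and at least 80% of their reads in clusters over no other gene. BIRC5 encodes survivin, a subunit of the chromosomal passenger complex that inhibits apoptosis. It had 5.08 CPM at 0.05/0.05 and 212 CPM at 0.05/0.025, with 208 CPM at 0.1/0.025, no listed cluster with RNase T1 1/1 and 65.8 CPM with RNase T1 0.25/0.25. The 0.05/0.05 value rested on 12 reads in 2 clusters, against 142 reads in 12 clusters, and was 41.7-fold lower (95% counting interval 23.1 to 82.6). MKI67, the proliferation marker Ki-67, had 56.3 CPM at 0.05/0.05, 523 CPM at 0.05/0.025 and 805 CPM at 0.1/0.025, and 25.9 CPM at RNase T1 1/1 against 252 CPM at 0.25/0.25. Both electroeluted libraries were thus the low ones for both genes, and the fold of MKI67 was 9.30 (7.59 to 11.4).

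The same order of the RNase I libraries was seen in further genes among the 12 largest falls under these limits. RRM2 had 70.7 CPM at 0.05/0.05, 437 CPM at 0.05/0.025 and 454 CPM at 0.1/0.025, a fall of 6.18-fold (5.09 to 7.52). RNase T1 gave 97.7 CPM at 1/1 and 1058 CPM at 0.25/0.25. ASF1B had 58.4 CPM against 418 and 346 CPM in the other RNase I libraries, which is 7.15-fold lower (5.81 to 8.83). ZWINT, a kinetochore protein, had 26.7 CPM against 186 and 197 CPM, and MAD2L1, the spindle checkpoint protein MAD2, had 28.8 CPM against 186 and 171 CPM. H2AX, the histone variant phosphorylated at DNA breaks, had 47.0 CPM against 231 and 218 CPM, and GINS1, a subunit of the replicative helicase complex, 37.3 CPM against 169 and 213 CPM. In each of these genes the 0.05/0.05 library stood below both other RNase I libraries, which differed from each other by far less. DDIAS, an inhibitor of apoptosis after DNA damage, fell from 251 to 33.4 CPM.

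Some of the 12 largest falls lay in sequence that other loci share. The processed pseudogene ENSG00000235036 (chr20:10612861-10614229, minus strand) had 51.2 CPM at 0.05/0.05 and 291 CPM at 0.05/0.025, and DNAJC9, a histone-binding co-chaperone, had 85.1 and 379 CPM. A cluster of 99 nt of the pseudogene at 0.05/0.05, and one of 109 nt at 0.05/0.025, was identical over its whole length to a stretch of a DNAJC9 cluster. HNRNPA1L3 had 40.2 and 180 CPM, in 1 cluster per library that shared up to 39 nt with clusters of HNRNPA1, which itself had 74.5 and 242 CPM. Reads of these loci cannot be assigned to one of them with certainty.

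The lists of S phase and G2/M phase genes in common use for scoring single cells were added after the values above had been seen, and their counts are therefore a description. Of 43 S phase genes, 26 had a cluster at 0.05/0.05 and 27 at 0.05/0.025. Of the 16 with enough reads to compare, 11 fell and 0 rose, against 5.5% and 18.5% of all genes. Their median log2 ratio was -1.57. Genes that are low at 0.05/0.05 reach the mean of 20 CPM only through their 0.05/0.025 level, so this count and median depend on that limit. Without it, 15 of 23 S phase genes fell, beside 643 of all 7119 genes. The reads of all S phase genes summed to 654 CPM at 0.05/0.05, 1986 CPM at 0.05/0.025 and 2200 CPM at 0.1/0.025, and to 857 CPM with RNase T1 1/1 against 2932 CPM with 0.25/0.25. Besides RRM2, the helicase HELLS fell from 189 to 64.3 CPM and GMNN, geminin, which blocks replication licensing, from 152 to 50.8 CPM. PCNA, the DNA polymerase clamp, did not reach the limit, with 34.3 against 46.2 CPM.

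Of 54 G2/M phase genes, 31 had a cluster at 0.05/0.05 and 37 at 0.05/0.025. Of the 20 compared, 16 fell and 0 rose, against 5.5% and 18.5% of all genes, with a median log2 ratio of -1.56. Members low at 0.05/0.05, such as HMMR and CDK1, reach the mean of 20 CPM only through their 0.05/0.025 level. That limit therefore set part of the count and the median. Without it, 24 of 29 G2/M genes fell. HMMR, a spindle-associated hyaluronan receptor, had 5.50 CPM at 0.05/0.05, 127 CPM at 0.05/0.025 and 73.4 CPM at 0.1/0.025. CDK1, the mitotic kinase, had 11.4 CPM against 86.5 and 72.2 CPM, and NUSAP1, a spindle protein, 63.9 CPM against 303 and 344 CPM. CBX5, the heterochromatin protein HP1α, was the most abundant member and had 1416 CPM at 0.05/0.05 and 1422 CPM at 0.05/0.025. The list as a whole summed to 2880, 5928 and 6398 CPM in the RNase I libraries 0.05/0.05, 0.05/0.025 and 0.1/0.025. Between the RNase I libraries that differ in the in-lysate dose, 0.1/0.025 over 0.05/0.025, the median log2 ratio was -0.0058 for S phase and -0.0028 for G2/M genes.

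Summed over each list, reads were lower in clusters within the CDS and within the 3′UTR but not in those across the stop codon. Clusters within the coding sequence (CDS) of S phase genes summed to 42.8 CPM at 0.05/0.05 and 142 CPM at 0.05/0.025, which is 3.31-fold lower, and clusters within their 3′UTRs to 511 and 1595 CPM, which is 3.12-fold lower. For G2/M genes the falls were 3.81-fold in the CDS and 2.01-fold in the 3′UTR. Clusters spanning the stop codon held 25.8 and 19.4 CPM in S phase genes and 152 and 139 CPM in G2/M genes, at 0.05/0.05 and 0.05/0.025. In S phase genes these were few reads, of which GMNN alone had 51 at 0.05/0.05 and 0 at 0.05/0.025. Over all genes the spanning share was also higher at 0.05/0.05, with 10.4% against 7.72%.

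**Figure D2:**
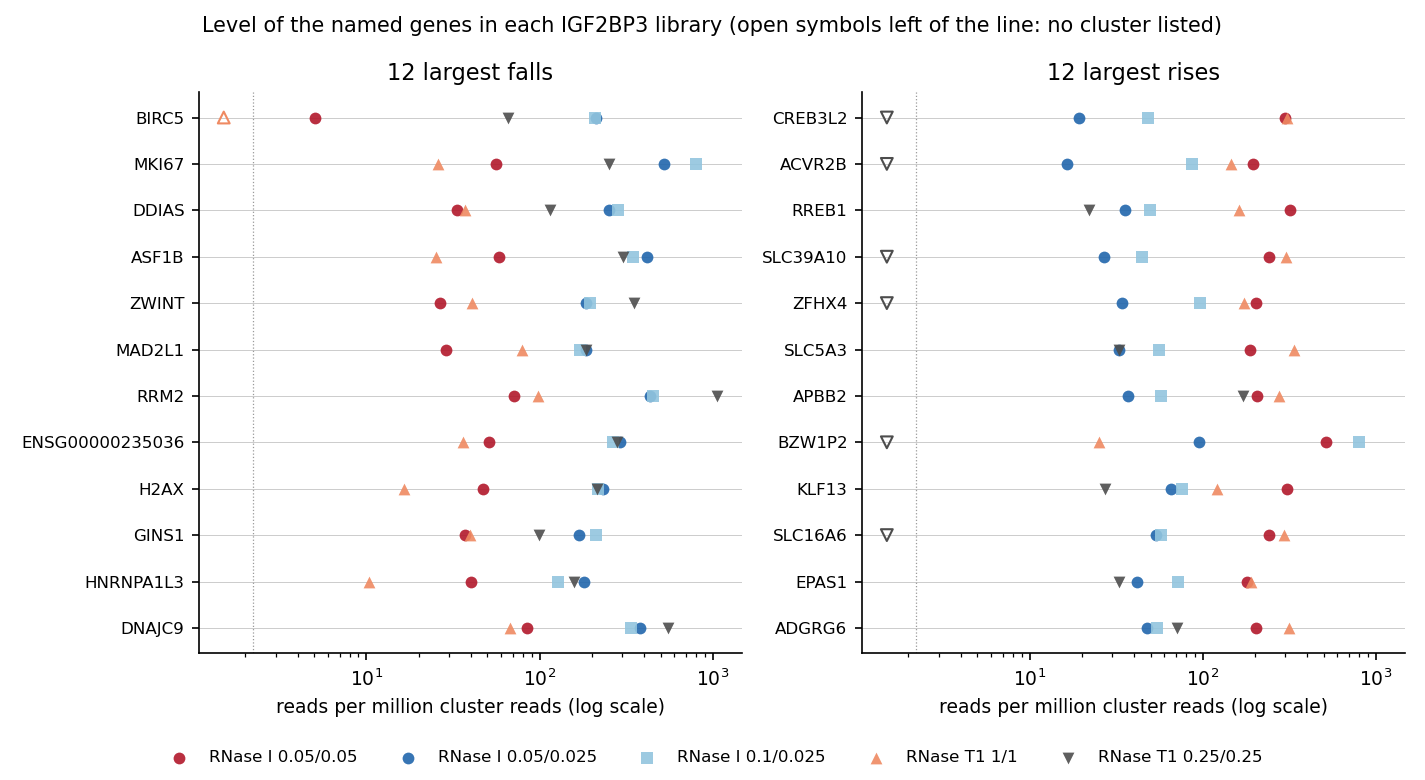
CPM (log axis) of the 12 genes with the largest falls and the 12 with the largest rises in the 5 IGF2BP3 libraries. Open symbols left of the dotted line mark libraries without a listed cluster. For every fall the red points (RNase I 0.05/0.05) lie left of both blue symbols (0.05/0.025 and 0.1/0.025), and for every rise but BZW1P2 they lie right of them.

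In a broader list, 7 of 22 cyclins, CDKs and cell cycle regulators fell and 0 rose, beside 5.5% and 18.5% of all genes. PLK1, the polo-like kinase of mitosis, had 2.12 CPM at 0.05/0.05 and 58.2 CPM at 0.05/0.025. At so low a level at 0.05/0.05 a gene reaches the mean of 20 CPM only by a fall, so that limit set part of the count. The replication licensing helicase subunits MCM2, MCM3 and MCM4 had 9.74, 26.7 and 23.3 CPM at 0.05/0.05 and 47.7, 103 and 85.0 CPM at 0.05/0.025. The most abundant members did not move by 2-fold. CDKN1A, the inhibitor p21, had 4305 and 5660 CPM, CCND1, cyclin D1, had 2740 and 2603 CPM, and the ubiquitin ligase MDM2 had 2046 and 2621 CPM.

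Replication-dependent histone genes, transcribed in S phase, fell further. Of 68 genes, 20 had a cluster at 0.05/0.05 and 31 at 0.05/0.025. Among the 9 compared, 8 fell, beside 5.5% of all genes, with a median log2 ratio of -2.69. These 8 had at most 10.2 CPM at 0.05/0.05. At such a level a gene reaches the mean of 20 CPM only if its 0.05/0.025 level is more than 2-fold higher. The count and the median were therefore set by that limit, which the sums below do not use. H2AC13 had 9.74 CPM at 0.05/0.05, 76.0 CPM at 0.05/0.025 and 23.7 CPM at 0.1/0.025, and H2AC14 had 9.74, 62.6 and 13.7 CPM. The list summed to 134 CPM at 0.05/0.05, 381 CPM at 0.1/0.025 and 947 CPM at 0.05/0.025. Unlike the sums of the S phase and G2/M lists, this sum was also lower at 0.1/0.025 than at 0.05/0.025. The difference was at least 2-fold in 5 of the 9 genes, beside 5.67% of all 4953 genes in that comparison. Because the 9 genes were taken partly by their 0.05/0.025 level, this count depends on the limit too. Histone genes are near copies of each other (clusters of H2AC13 and H2AC14 shared up to 124 nt), so the division of reads among them is uncertain.

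Other housekeeping lists had median log2 ratios below the 0.12 of all genes, and their counts are to be read beside the 18.5% of all genes that rose and the 5.5% that fell. Of 24 proteasome subunits 7 fell and 1 rose, with a median log2 ratio of -0.77, among them PSMD7 of the lid (203 against 440 CPM) and PSMB2 of the core (220 against 456 CPM). The α-tubulin genes TUBA1B, TUBA1C and TUBA1A had 1293, 582 and 330 CPM at 0.05/0.05 and 5697, 2359 and 1266 CPM at 0.05/0.025. At 0.1/0.025 they had 4768, 2006 and 1040 CPM. TUBA1B and TUBA1C shared sequence over up to 246 nt of a cluster. Other cytoskeletal genes changed less, and of the 23 compared 4 fell and 2 rose, with ACTG1 at 1413 and 1853 CPM. Among 68 cytosolic ribosomal proteins 1 rose and 1 fell, with a median of -0.28, and among 35 hnRNP and SR proteins 1 rose and 2 fell, with a median of -0.40. The larger of these 2 falls was that of HNRNPA1L3, whose reads cannot be told from those of HNRNPA1 with certainty. Of 39 translation factors 2 rose and 1 fell, with a median of -0.22, and of 40 chaperones 2 rose and 0 fell, with a median of -0.12. Of 17 glycolysis genes 3 rose and 1 fell, with a median of -0.23, and of 43 nuclear-encoded respiratory chain subunits 1 rose and 2 fell, with a median of -0.18. Of 13 mitochondrially encoded mRNAs 2 rose and 1 fell, with a median of -0.30. MT-ND1, a subunit of complex I, had 1346 and 3757 CPM, and MT-ND3, of the same complex, 1001 and 180 CPM. Only 4.6% of the MT-ND1 reads lay in clusters over no other gene, and MT-ND4 and MT-ND4L both had 1045 CPM at 0.05/0.05. A cluster over several mitochondrial genes counted for each, so these values may not describe separate genes. Of 3 nuclear long non-coding RNAs compared, MALAT1 rose (16.4 to 35.6 CPM), SNHG1 fell (2092 to 1021 CPM) and GAS5 had 99.9 and 105 CPM.

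**Figure D3:**
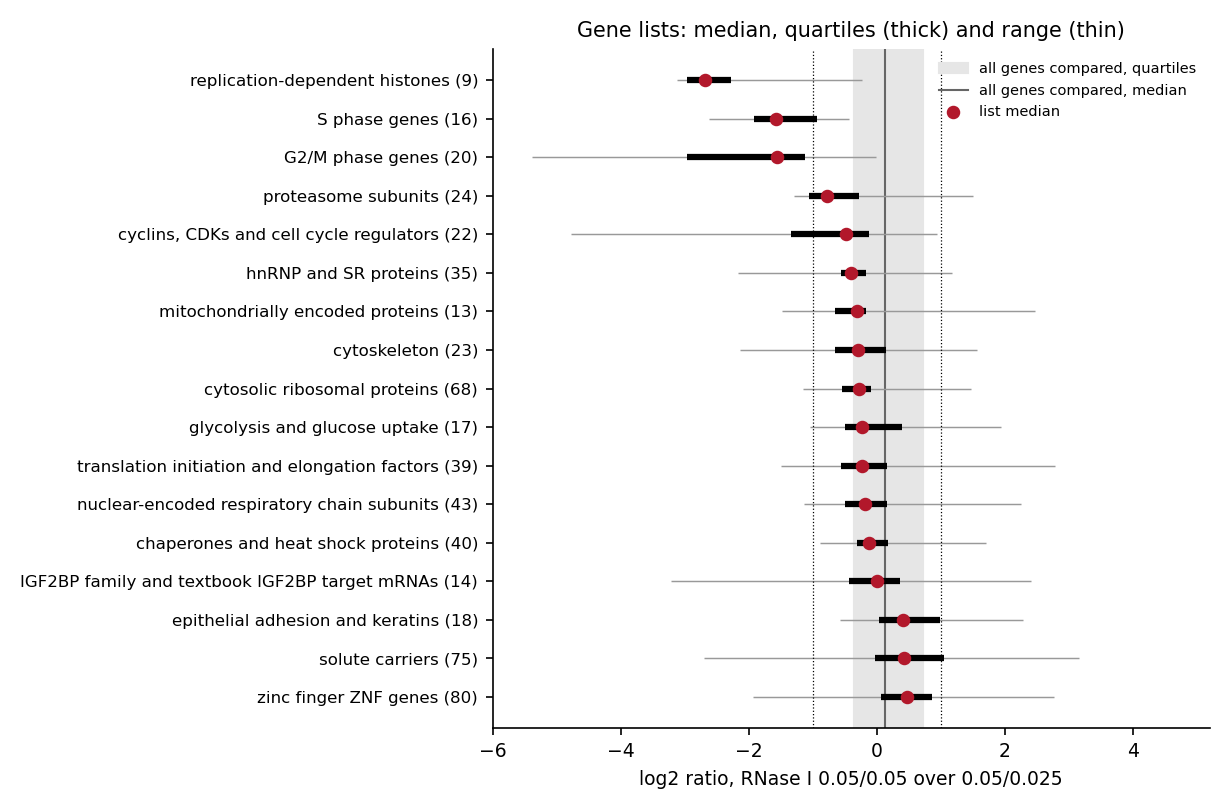
Log2 ratio of RNase I 0.05/0.05 over 0.05/0.025 in gene lists with 9 or more genes compared (number in brackets). Red points are medians, thick bars quartiles and thin lines the range. The gray band and line show quartiles and median of all 5377 genes. Histone, S phase and G2/M lists have medians left of the 2-fold line, and solute carriers, zinc finger genes and epithelial adhesion genes have medians above that of all genes.

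The largest rise of all genes compared was that of the mitochondrial tRNA gene MT-TI, from 40.3 to 1367 CPM, but only 2.4% of its reads lay in clusters over no other gene. The genes described next have a mean of at least 100 CPM and at least 80% of their reads in clusters over no other gene. CREB3L2, a membrane-bound bZIP transcription factor, had 299 CPM at 0.05/0.05, 19.4 CPM at 0.05/0.025 and 48.5 CPM at 0.1/0.025, and 307 CPM with RNase T1 1/1 where 0.25/0.25 listed no cluster. The rise was 15.4-fold (8.97 to 29.1) and rested on 31 clusters against 2. ACVR2B, an activin receptor, had 194 CPM against 16.4 and 87.1 CPM, and RREB1 had 321 CPM against 35.8 and 49.8 CPM. Both libraries with electroeluted RNA were the high ones for these genes, with 146 CPM of ACVR2B and 163 CPM of RREB1 at RNase T1 1/1.

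SLC39A10, a zinc importer, rose from 26.8 to 240.0 CPM, SLC5A3, a myo-inositol transporter, from 32.8 to 188 CPM and SLC16A6, a monocarboxylate transporter, from 53.7 to 243 CPM. KLF13 rose from 65.6 to 307 CPM and EPAS1, the hypoxia factor HIF2α, from 41.8 to 180 CPM. ZFHX4, APBB2 and ADGRG6 rose by 4.27- to 5.91-fold. At 0.1/0.025 these 8 genes had between 44.8 and 97.1 CPM, above the 0.05/0.025 and below the 0.05/0.05 value in each. The processed pseudogene BZW1P2 rose from 95.4 to 513 CPM but had 804 CPM at 0.1/0.025, and its largest cluster of 368 nt at 0.05/0.05 was identical to a cluster of BZW1.

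Of 75 solute carrier genes 21 rose and 1 fell, with a median log2 ratio of 0.42, and of 80 zinc finger genes of the ZNF family 17 rose and 4 fell, with a median of 0.47. These are 28.0% and 21.25% of the genes, beside 18.5% of all genes. Of 18 genes of epithelial adhesion and keratins 5 rose and 0 fell. They were JUP, plakoglobin (85.0 to 249 CPM), the desmosomal cadherin DSC2 (20.9 to 86.8 CPM), the integrin subunit ITGB4 (8.95 to 43.6 CPM) and the keratins KRT19 and KRT23. CD44, the most abundant of the group, had 1584 and 1853 CPM.

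The 6 genes with the highest mean levels, under the same limit on shared clusters, moved by less than 2-fold. PABPC1, the cytoplasmic poly(A)-binding protein, had 4872 CPM at 0.05/0.05 and 8838 CPM at 0.05/0.025, a log2 ratio of -0.86. KITLG, the ligand of the receptor KIT, had 4636 and 5840 CPM, and FAT1, a giant cadherin, 5091 and 3781 CPM. Of IGF2BP3 and textbook targets of its family, 14 could be compared, with a median log2 ratio of -0.0030. Among these 14, 2 rose and 1 fell, beside 18.5% and 5.5% of all genes. The mRNA of IGF2BP3 itself had 137 and 122 CPM and that of IGF2BP2 91.0 and 70.1 CPM.

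Clusters were found at 0.05/0.05 alone in 3961 genes and at 0.05/0.025 alone in 163 genes. The 3961 genes had a median of 5.50 CPM, and 1204 of them (30.4%) lay below 2.98 CPM, the smallest value listed at 0.05/0.025. That value is a cluster of 2 reads, whereas the median cluster there had 8 reads. More of the 3961 genes may therefore have been too low to be listed at 0.05/0.025. With a mean of at least 20 CPM, 104 genes had clusters at 0.05/0.05 alone and 3 at 0.05/0.025 alone. MUC12, a membrane mucin, had 340 CPM at 0.05/0.05 and 298 CPM with RNase T1 1/1 and was not listed in the other 3 IGF2BP3 libraries. TMEM106B, a lysosomal membrane protein, had 147 CPM at 0.05/0.05, no listed cluster at 0.05/0.025 and 47.3 CPM at 0.1/0.025. The highest level at 0.05/0.025 alone was that of the histone gene H3C12 (62.6 CPM), with 50.0% of its reads in clusters over no other gene. Where that share was at least 80%, the highest included NEK2 (41.8 CPM), a centrosomal kinase, DSN1 (35.8 CPM), a kinetochore subunit, and CDCA8 (34.3 CPM), borealin, a partner of survivin in the chromosomal passenger complex. The other named genes of that kind were a Y RNA and the 7SL pseudogene RN7SL508P. Of 40 genes annotated as miscellaneous RNA, which include Y and 7SL RNA copies, 15 fell and 0 rose, beside 5.5% and 18.5% of all genes.

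The log2 ratio increased with the length of the 3′UTR. In 5 groups of 935 genes by the 3′UTR of the canonical transcript, the median log2 ratio was -0.13 for 3′UTRs of up to 729 nt, 0.04, 0.16 and 0.30 in the groups between and 0.55 for those of 3868 nt or longer. In the group with the shortest 3′UTRs 10.4% rose and 9.0% fell, and in the longest 30.5% rose and 1.8% fell. When only clusters of at least 2.98 CPM were kept in both libraries the medians ran from -0.28 to 0.29, in the same order. That floor is worth 2 reads at 0.05/0.025, where the median cluster had 8 reads, and 7.0 reads at 0.05/0.05. Part of the difference in depth may therefore remain, and its part in this order was not tested. CDS length gave a similar order, from -0.24 for the shortest to 0.58 in the longest. The mean level gave the opposite order, from 0.61 in the lowest group to -0.13 in the highest. Their separate parts were not tested. The GC content of the 3′UTR gave medians between 0.10 and 0.25.

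**Figure D4:**
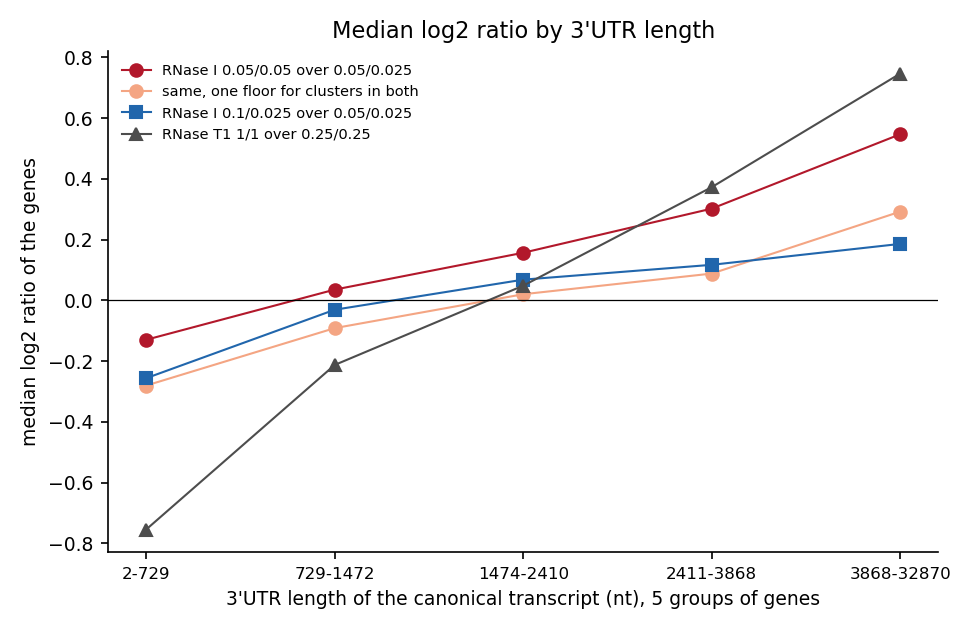
Median log2 ratio of genes (y axis) in 5 groups by 3′UTR length in nt (x axis) for 3 pairs of libraries, and for the RNase I on-beads pair with the same floor for clusters in both libraries. All lines rise from the shortest to the longest group. The line of RNase T1 1/1 over 0.25/0.25 is the steepest, from -0.75 to 0.75, and that of RNase I 0.1/0.025 over 0.05/0.025 runs from -0.26 to 0.19.

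The RNase T1 pair shares no library with the RNase I pair. Its 1/1 library also had the higher dose, electroeluted RNA and more reads (1157194 against 182448). Over 3284 genes compared in both pairs, the log2 ratios had a Pearson correlation of 0.59 and a Spearman correlation of 0.63, and the Pearson correlation was 0.58 without the S phase and G2/M genes. Genes are not independent, and both pairs share the direction of depth and of gel extraction. Of 361 genes that rose in the RNase I pair, 199 rose and 10 fell in the RNase T1 pair, where 20.8% and 18.5% of 3554 genes rose and fell. Of 163 genes that fell in the RNase I pair, 113 fell and 3 rose. The parts of on-beads dose, in-lysate dose, gel extraction, depth and cell culture in this likeness cannot be told apart.

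The share of reads within the CDS was nearly the same in both libraries, and the share in clusters across the stop codon was higher at 0.05/0.05. Clusters were classed by the canonical transcript as CDS only, 3′UTR only or spanning the stop codon. CDS-only clusters held 19.1% of these reads at 0.05/0.05 (95% Wilson interval 19.01 to 19.12) and 18.9% at 0.05/0.025 (18.83 to 19.03). Clusters spanning the stop codon held 10.4% (10.4 to 10.5) and 7.72% (7.65 to 7.79), and 3′UTR-only clusters 70.5% and 73.4%. The spanning share of 0.1/0.025 was 6.40%. Spanning clusters had a median length of 99 nt at 0.05/0.05 and 84 nt at 0.05/0.025, and 2.72% and 2.57% of the clusters were of this kind.

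In 2337 genes with at least 50 such reads in both libraries, the CDS-only share rose by 20 percentage points or more in 33 genes (1.41%) and fell by as much in 45 (1.93%). The difference was within 5 points in 68.2% of the genes. The share of spanning clusters rose by 20 points or more in 214 genes and fell in 32. In 20 of the 45 genes with a lower CDS-only share the spanning share rose by 20 points or more, and in 21 it was within 5 points. When spanning clusters were counted as CDS, the CDS share rose in 242 genes and fell in 46. Genes without any CDS-only read numbered 498 at 0.05/0.05 and 1019 at 0.05/0.025, the library with fewer reads, where weak clusters could go unlisted.

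Sites from among the 8 largest falls in CDS-only share are shown by their stop codons, in capitals. They have 12 nt of the CDS before and 10 nt of the 3′UTR after the stop codon, read from the spanning cluster at 0.05/0.05 (GRCh38, 5′ to 3′). They lie at chr1:43363906-43363930 (minus strand, ELOVL1), chr3:12836084-12836108 (minus strand, RPL32), chr20:34089720-34089744 (minus strand, EIF2S2) and chr14:59504058-59504082 (plus strand, JKAMP).
ELOVL1: gtcaaggccaacTGAgaagcatggc
RPL32: gaagaaaatgagTAGgcagctcatg
EIF2S2: gccaaagctaacTAAtttgctaatc
JKAMP: gccaatggacacTGAgtgtagacat
In ELOVL1, a fatty acid elongase, the CDS-only share was 9.16% of 284 reads at 0.05/0.05 (6.32 to 13.1) and 58.0% of 112 reads at 0.05/0.025 (48.8 to 66.8). A cluster of 458 nt with 189 reads crossed the stop codon at 0.05/0.05. The same stretch held 4 clusters at 0.05/0.025, 2 in the CDS, the nearer one ending 2 nt from the stop codon's last base, and 2 in the 3′UTR, the nearer one starting 37 nt beyond it. EIF2S2, the β subunit of the initiation factor that brings the initiator tRNA, went from 40.6% of 192 reads to 1.43% of 420 reads, with 75.0% of its reads in spanning clusters at 0.05/0.05. Its spanning cluster of 379 nt lay over 4 clusters at 0.05/0.025. JKAMP, a membrane protein of the endoplasmic reticulum, had a spanning cluster of 702 nt with 413 reads over 1 cluster in the CDS and 3 in the 3′UTR at 0.05/0.025, and its CDS-only share was 17.4% against 42.9%.

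FBXO7, an F-box protein, had the largest fall, from 79.4% of 136 reads (71.9 to 85.4) to 30.5% of 407 reads (26.2 to 35.1). There a cluster of 362 nt ended 1 nt past the stop codon, so 1 nt decided its class. CBLL1, a ubiquitin ligase of the m6A writer complex, fell from 62.5% to 20.2% in the same way, with a cluster of 554 nt that reached 4 nt past the stop codon. RPL32 fell from 71.6% to 31.2%. The 0.1/0.025 values of ELOVL1, EIF2S2, JKAMP, CBLL1 and RPL32 were 54.7%, 41.0%, 47.2%, 68.3% and 71.6%, each nearer to 0.05/0.025.

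Rises in the CDS-only share with the spanning share within 5 points occurred in 18 of the 33 genes. FASN, fatty acid synthase, had 0 of 158 reads in the CDS at 0.05/0.025 (upper Wilson bound 2.37%) and 28.3% of 834 reads at 0.05/0.05, with 5.05% at 0.1/0.025. SMG1, the kinase of nonsense-mediated decay, had 0 of 182 reads (upper bound 2.07%) and 23.9% of 620 reads, with 8.89% at 0.1/0.025. FASN had 25 clusters at 0.05/0.05 and 2 at 0.05/0.025, and SMG1 had 33 and 13. Shares and bounds count reads in listed clusters only, so weak CDS clusters could have gone unlisted at the lower depth of 0.05/0.025. This was not tested. FAM120A had 22.9% at 0.05/0.025 and 45.2% at 0.05/0.05. In SHOC2, a scaffold of RAS signaling, the share was 6.87% and 26.1%. EIF3A, a subunit of initiation factor eIF3, went from 8.89% to 30.5%, but its spanning share also went up, from 0% to 33.4%. RPL37A rose from 48.9% to 84.6% while its spanning share fell from 51.1% to 11.9%.

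**Figure D5:**
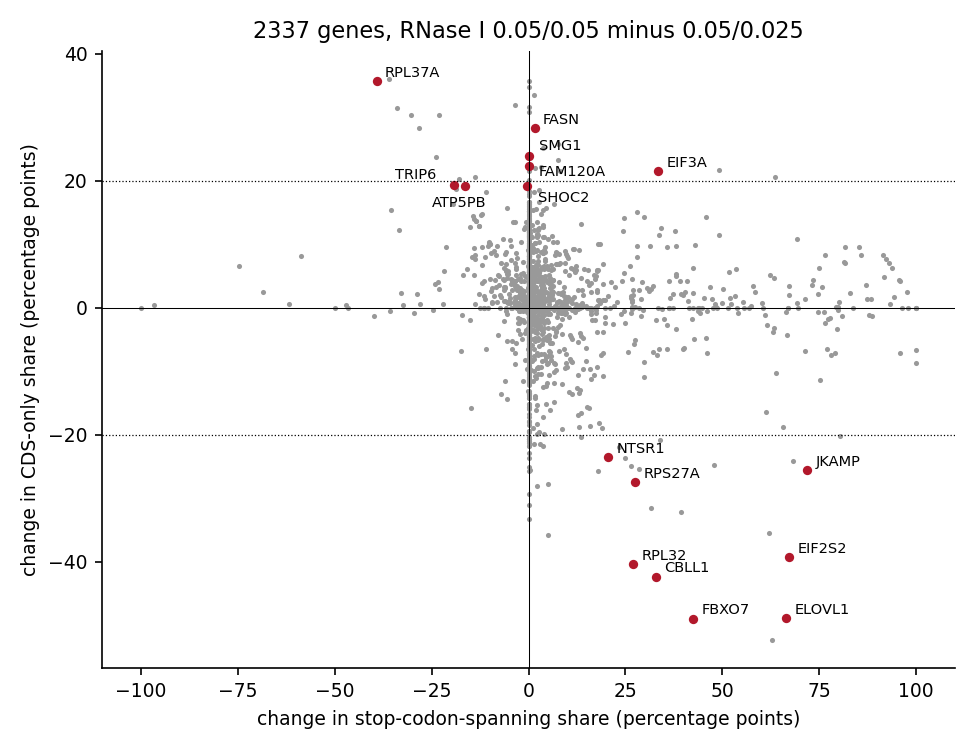
Each point is 1 of 2337 genes, by the change in the share of its reads in stop-codon-spanning clusters (x axis) and in CDS-only clusters (y axis), in percentage points, RNase I 0.05/0.05 minus 0.05/0.025. Genes with the largest falls in CDS-only share lie at the lower right, where the spanning share rose. Dotted lines mark 20 points.

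At 0.05/0.05 more clusters lay in the 3′UTR in 3759 of 4312 genes with 3′UTR clusters in both libraries, as many in 219 and fewer in 334. Of the 90999 clusters, 61120 (67.2%), with 24.5% of the reads, overlapped no cluster at 0.05/0.025, and 32382 of them lay below 2.98 CPM. A further 5917 clusters (6.50%) lay over 2 or more clusters at 0.05/0.025, up to 12. They held 38.1% of the reads and had a median length of 185 nt. In the other direction, 2581 clusters at 0.05/0.025 (7.02%), with 2.29% of the reads, had no counterpart at 0.05/0.05. In the 4312 genes, the median share of the 3′UTR covered was 39.0% at 0.05/0.05 and 14.8% at 0.05/0.025, and it was larger at 0.05/0.05 in 97.0% of the genes. Cluster numbers and coverage were taken from all listed clusters, of libraries with 2362467 and 670712 cluster reads. They were not recomputed at equal depth, and the part of depth in them was not tested.

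Reads in 3′UTRs lay farther from the stop codon at 0.05/0.05. The read-weighted median distance was 947 nt at 0.05/0.05, 805 nt at 0.05/0.025 and 841 nt at 0.1/0.025, and 976 and 755 nt with RNase T1 1/1 and 0.25/0.25. Reads beyond 4000 nt made up 5.98% and 4.04% in the RNase I pair, and those within 100 nt 2.37% and 3.75%. Both libraries with electroeluted RNA, which were also the deepest, had the longest distances.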

How the data were processed

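IGF2BP3-bound RNA of HCT116 cells was measured by IR-PAR-CLIP. Per the labels' processing notes and the study's methods, the authors demultiplexed reads with bcl2fastq 2.20.0.422, extracted the UMIs with UMI-tools 1.1.1, trimmed reads to lengths of 18 to 45 nt (Trimmomatic 0.30), mapped them by Bowtie 0.12.7 on GRCh38 with up to 3 mismatches, removed duplicates by UMI and ran PARalyzer on each library alone. For every cluster the deposited table gives counts of reads and of conversion events without normalization. The deposited mode score, a fraction, was not used. Cluster sequences were checked against GRCh38, and 244645 of 244645 were identical.

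Clusters were assigned with Python 3.11.15, pandas 2.3.3, scipy 1.17.1 and intervaltree 3.1.0 to GENCODE release 44 genes by same-strand exon overlap of at least 1 nt, and a cluster over several genes counted for each. CDS and 3′UTR were those of the canonical transcript. Depth was 2362467 and 670712 cluster reads, which sets the smallest listed cluster. Folds have exact conditional binomial intervals, shares Wilson intervals and share differences Newcombe intervals, all at 95% and for counting error only.

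Members and gene lists were chosen with earlier results of these data known, and the S phase and G2/M phase lists after the gene values had been seen. Genes were named by rule if at least 80% of their reads lay in clusters over no other gene. The rule took the 12 largest rises and 12 largest falls with a mean of at least 100 CPM, the 6 highest, the 5 highest in 1 library only each way, the 8 largest changes in CDS share each way with at least 100 reads, the IGF2BP genes and the 3 highest of each list. Other genes were chosen from the lists after their values were seen. Alternatives changed the denominator, centring, cluster floor, gene assignment, conversion criterion, level filter, feature rule and reference library.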

Additional observations from a re-analysis of the deposited data

Results flagged for a closer look

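The share of CDS-only reads was 0.13 points higher at RNase I 0.05/0.05 than at 0.05/0.025, whereas with RNase T1 it was 0.23 points lower at 1/1 than at 0.25/0.25, a difference of -0.2309 points. It stood out because the 2 pairs moved in opposite directions. The share of stop-codon-spanning clusters was 2.69 points higher in the RNase I pair and changed by -1.007 points in the RNase T1 pair, with 1.18% at 1/1 and 2.18% at 0.25/0.25. Neither difference between the pairs was tested, since each condition is 1 library.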

How the results depend on the processing

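Counts of genes depended on the level filter and on small clusters. The number of genes at least 2-fold higher at 0.05/0.05 was 639 with the same CPM floor for clusters in both libraries and 415 with a mean of at least 50 CPM, and the number lower was 156 with a mean of at least 50 CPM and 643 without a filter. With the median log2 ratio set to 0 there were 861 higher and 393 lower genes. Counting spanning clusters as CDS gave 242 genes with a CDS share up by 20 points, and splitting reads by nucleotides gave 22 with a share down by as much. The difference in CDS-only share was 2.82 points with spanning clusters as CDS, 0.97 with reads split by nucleotides, 0.26 over all protein-coding transcripts, 0.97 for clusters with more than 0.5 conversion events per read and 1.60 against 0.1/0.025. It reversed to -1.06 points with the same CPM floor in both libraries, and the cause was not tested. The difference in spanning share was 3.43, 2.27 and 4.02 points with that floor, that conversion criterion and that reference. BZW1P2 reversed to a log2 ratio of -0.65 against 0.1/0.025, and ZWINT was at -1.41 under the conversion criterion. Of 141 recomputed values of the 24 genes with the largest rises and falls, 123 stayed within the counting interval and 17 left it without a change of sign. Falls numbered 8 to 16 among S phase and 12 to 24 among G2/M genes under the 9 alternatives, chosen after seeing the data. The number of genes compared changed with them. With a mean of at least 50 CPM, 8 of 10 S phase and 12 of 16 G2/M genes fell, and without a filter 15 of 23 and 24 of 29. No paired analysis was possible because each condition has 1 library, and no library could be left out. Depth limits low genes at 0.05/0.025, where the smallest listed cluster is 2.98 CPM.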
